A study of Mus musculus with 27 samples.

Results

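The tumour necrosis factor (TNF) family of cytokines and its receptors was followed through acute and chronic liver injury in hepatic stellate cells (HSCs), liver mesenchymal cells that store retinoid. Members were defined by gene symbol, with earlier results of these data known. They were protein-coding genes with a Tnfsf or Tnfrsf symbol, and Tnf, Lta, Ltb, Ltbr, Fas, Fasl, Cd27, Cd40, Cd40lg and Cd70. The rule found 41 genes, 24 receptors and 17 ligands, among the 53379 genes of the table. RNA from HSCs of male Balb/c mice, sorted on the ultraviolet fluorescence of their retinoid and not cultured, was sequenced in 27 bulk libraries of 7 groups. Injury came from intraperitoneal carbon tetrachloride (CCl4), a hepatocyte toxin, diluted in mineral oil and dosed at 0.5 µL for each g of mouse. Healthy mice aged 10 to 12 weeks received no injection, of CCl4 or of oil (n = 4). In the acute groups mice of that age received 1 injection, and cells were taken at 24 h (3 libraries), 72 h (4 libraries) or 7 d (4 libraries). In the chronic groups mice aged 8 to 10 weeks at the start received 8 injections over 4 weeks, and cells were taken 24 h, 72 h or 14 d after that course (n = 4 each). The labels name no genetic alteration in any group. The methods of the study describe each repeat as a separate experiment, and how many mice entered a library is not stated. Levels are given in CPM, counts relative to the scaled library size, and values of a group are listed in the order of the replicate numbers.

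Ligands of the family are mostly membrane proteins that act in trimers, on the cell surface or after they are shed, and cluster their receptors on the target cell. Receptors with a death domain, such as a receptor of TNF and those of Fas ligand and TRAIL, can start cell death. Receptors of the family, with or without this domain, can recruit TRAF adaptors and switch on NF-kB and the MAP kinases. Decoy receptors bind a ligand without passing the signal on. In the liver, TNF from macrophages acts on hepatocytes and stellate cells, and several other members are best known from T and B cells, so in a sorted population their RNA can also come from cells other than HSCs.

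The libraries held 6314801 to 13052838 counts in total, in a class of 8 libraries with up to 7580709 and a class of 19 libraries with at least 10792560. The lower class held replicates 1 and 2 of chronic 24 h and of chronic 72 h and all chronic 14 d libraries, so depth and group cannot be told apart in chronic 14 d against healthy. The labelled cell type was checked against its markers. The summed level of 10 stellate cell markers (Lrat, Reln, Des and others) ran from 18965 to 25661 CPM in healthy libraries and from 8310.2 to 16195 CPM in injured ones. Every marker was counted in each group. At acute 24 h, chronic 24 h and chronic 72 h 5 of 10 were called lower, with 1 called higher at chronic 24 h. At acute 72 h 3, at acute 7 d 4 and at chronic 14 d 1 were called lower. Markers of other cells were counted as well. The summed level of 10 macrophage markers was 112 to 406 CPM in healthy, 122 to 189 CPM in acute 24 h and 286 to 526 CPM in acute 72 h libraries. It rose to 4106 to 10378 CPM at acute 7 d, and was 571 to 3677 CPM at chronic 24 h, 919 to 2416 CPM at chronic 72 h and 808 to 1744 CPM at chronic 14 d. All 10 were called higher than in healthy libraries at acute 7 d, chronic 24 h and chronic 72 h, and 5 of 10 at chronic 14 d. B cell markers (6 genes) summed to 0 to 5.22 CPM in healthy and 22.9 to 39.6 CPM in chronic 14 d libraries, and T and NK cell markers (8 genes) to 3.12 to 5.62 and 31.1 to 60.2 CPM. Neutrophil markers (6 genes) went from 0 to 1.9 CPM in healthy to 2.55 to 18.4 CPM at acute 24 h and 39.1 to 49.7 CPM at chronic 14 d. Hepatocyte markers (8 genes) went from 518 to 3027 CPM in healthy to 143 to 322 CPM at acute 24 h. They stood at 1967 to 3690 CPM at chronic 72 h and at 1437 to 7134 CPM at chronic 14 d. Sinusoidal endothelial markers (7 genes, such as Stab2 and Lyve1) went from 98.8 to 292 CPM in healthy to 32.3 to 88.0 CPM at acute 72 h, where 6 were called lower (4 at acute 24 h and at chronic 24 h). Cholangiocyte markers (5 genes) went from 55.8 to 103 CPM in healthy to 758 to 4797 CPM at acute 7 d, where 1 was called higher. They stood at 559 to 1296 CPM at chronic 24 h, 254 to 842 CPM at chronic 72 h and 206 to 368 CPM at chronic 14 d, with 2 called higher at each. In bulk RNA, fewer cells of a type and less RNA per cell cannot be told apart.

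**Figure D1:**
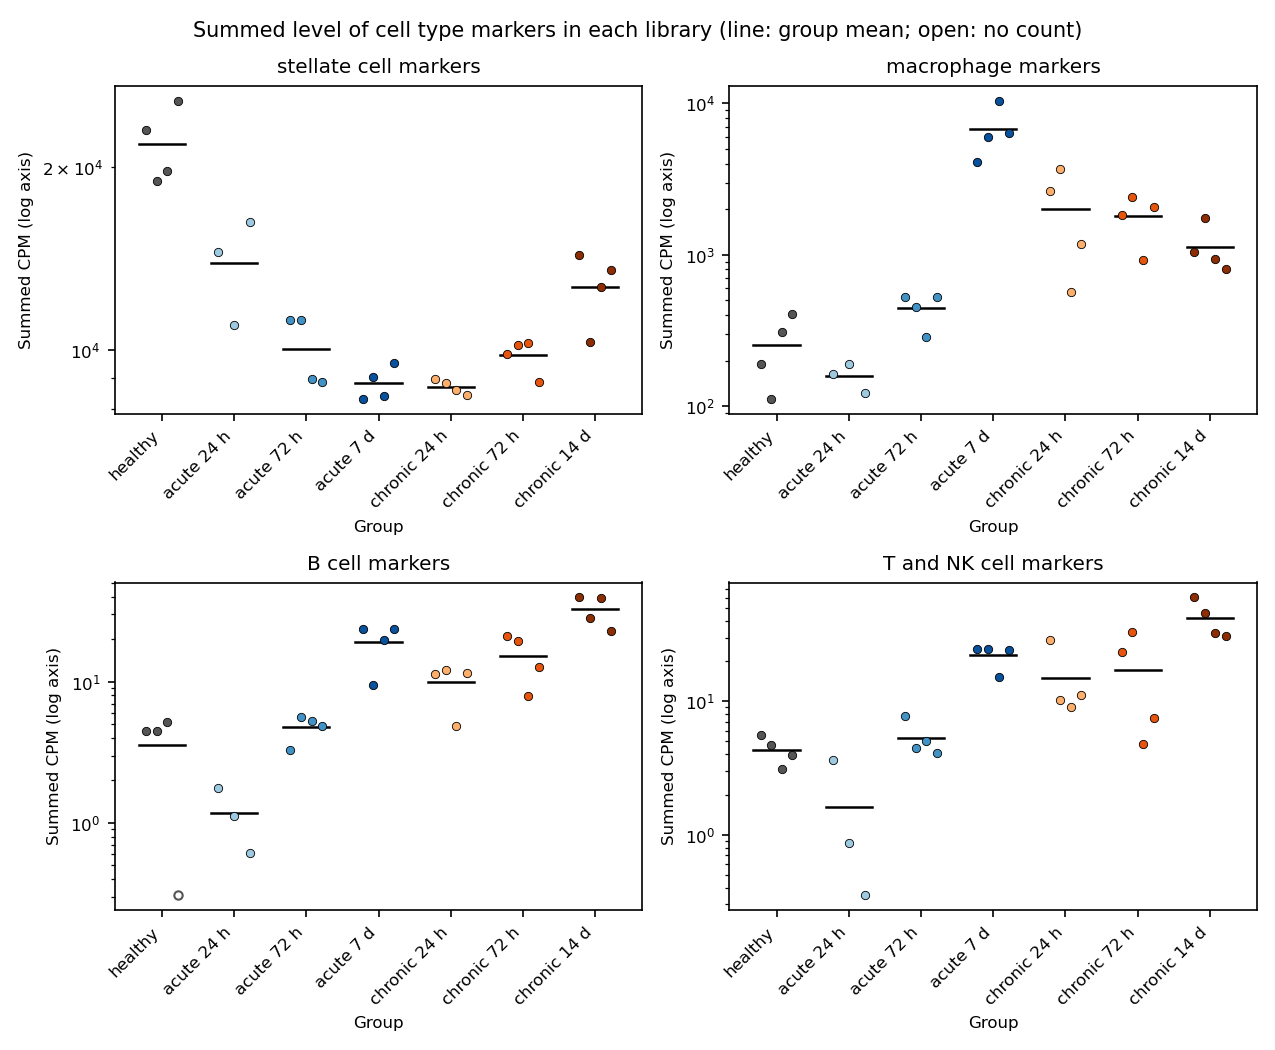
Summed CPM (log axis) of the markers of stellate cells, macrophages, B cells, and T and NK cells in each library by group; lines are group means and open circles libraries without a count. Macrophage markers sit at 112 to 406 CPM in healthy and 122 to 189 CPM in acute 24 h libraries, and at 4106 to 10378 CPM at acute 7 d, while B, T and NK cell markers are highest at chronic 14 d.

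Healthy HSCs already carried high levels of a handful of members. To compare levels between genes, counts were divided by merged exon length and scaled to a fixed total in each library (TPM). On this per-length scale Tnfrsf11b, the gene of osteoprotegerin, a secreted decoy receptor of RANK ligand, had the highest level of the family (923 ± 188 TPM, SD, n = 4, healthy libraries). Tnfrsf21, the gene of death receptor 6, followed at 718 ± 142 TPM, and the ranges of these neighbours overlapped. Tnfrsf1b, the gene of TNF receptor 2, had 289.6 ± 43.8 TPM, below every library of Tnfrsf21. Tnfsf9, which encodes 4-1BB ligand (245 ± 78.6 TPM), Ltbr, the lymphotoxin beta receptor (208 ± 30.7 TPM), and Tnfrsf1a, TNF receptor 1 (168 ± 119 TPM), came next, and each overlapped its neighbour in this order. A gap without overlap separated these 6 genes from the next, Tnfrsf12a, at 10.3 ± 1.79 TPM. Tnfsf13b, Fas, Cd40, Tnfrsf14 and Tnf lay between 4.45 and 6.19 TPM, where neighbours did not differ beyond their spread. Every other member had a healthy mean of at most 2.78 TPM.

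**Figure D2:**
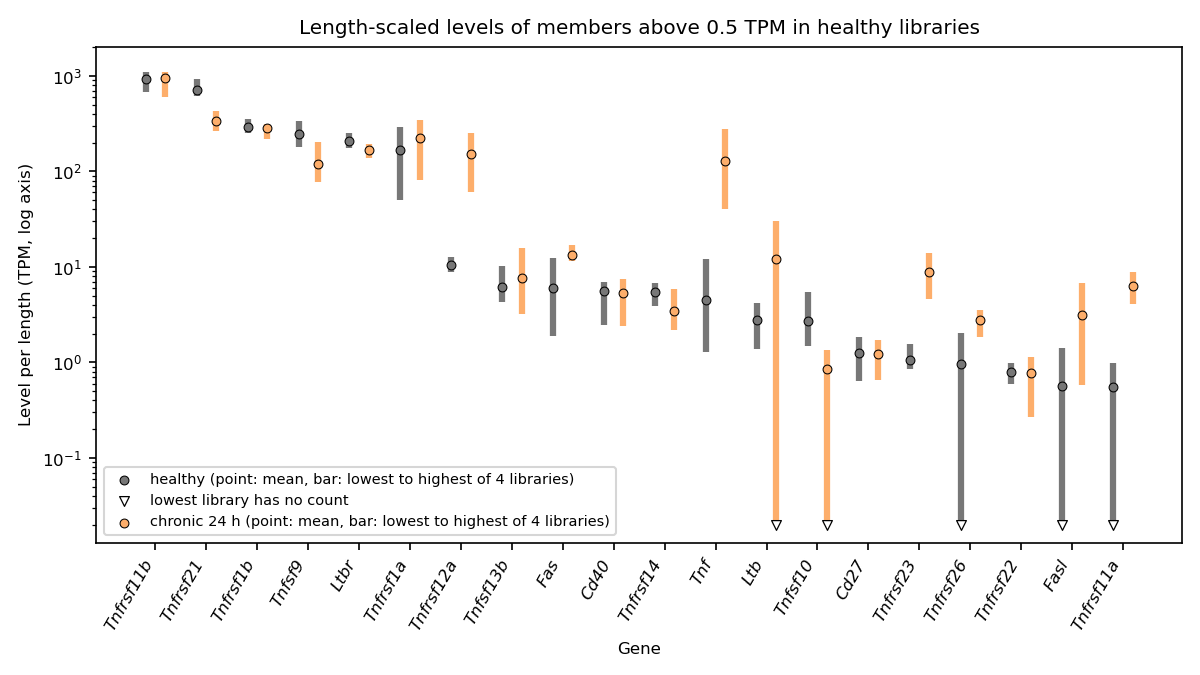
Level per length (TPM, log axis) of the members above 0.5 TPM in healthy libraries, in healthy and chronic 24 h libraries; points are means, bars run from the lowest to the highest of 4 libraries, and triangles mark a lowest library without a count. Tnfrsf11b, Tnfrsf21, Tnfrsf1b, Tnfsf9, Ltbr and Tnfrsf1a form an upper group in healthy libraries, and the chronic 24 h bars of Tnfrsf12a and Tnf lie above their healthy bars.

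Of the 41 members, 30 had enough counts to be tested, 20 receptors and 10 ligands, in one edgeR model of 18758 genes. A gene was called when its adjusted p was under 0.05 with more than 2-fold change. The share of all tested genes called in the same direction is given as the background of each count. A member could pass the filter through the one group in which it is high, so these counts describe the tested members and are no evidence on the family as such. At acute 24 h, 6 were higher (background 9.41% of genes) and 5 lower (12.5%). At acute 72 h, 5 were higher (background 8.23% of genes) and 1 lower (4.33%). At acute 7 d, 11 were higher (background 9.23%) and 0 lower (5.64%), with 4 lower at an unadjusted p below 0.05 in edgeR and 1 called lower by DESeq2. With no fold minimum, 3 members and 1988 of all 18758 genes were lower there at an adjusted p below 0.05 (edgeR). After the chronic course, 10 were higher (background 11.2% of genes) and 3 lower (8.11%) at 24 h, and 8 were higher (background 7.88% of genes) and 1 lower (4.2%) at 72 h. At chronic 14 d, 8 were higher (background 4.55%) and 0 lower (1.17%), with 5 lower at an unadjusted p below 0.05 in edgeR and 0 called lower by DESeq2. With no fold minimum, 3 members and 655 of all 18758 genes were lower there at an adjusted p below 0.05 (edgeR). Between chronic 14 d and chronic 24 h, 1 were higher (background 6.65% of genes) and 5 lower (6.11%), and between chronic 24 h and acute 24 h, 9 were higher (background 10.9% of genes) and 3 lower (3.05%). In all, 23 of the 30 tested members were called at least once in the 8 comparisons. The share of all genes called at least once was not drawn up, so this count has no background. The 6 comparisons with healthy share the same 4 control libraries and are given side by side. Of all genes called, 79.6% were higher at chronic 14 d against healthy and 52.1% at chronic 14 d against chronic 24 h, and 91.2% and 67.2% when libraries were scaled by library size alone, which moved the median of all genes by 0.17 and 0.17 (log2).

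The median log2 fold change of the tested members against healthy was 0.19 at acute 24 h, 0.34 at acute 72 h and 0.94 at acute 7 d, with members that have no count in a group set to their bound or left out. It was 1.41 at chronic 24 h, 0.76 at chronic 72 h and 1.17 at chronic 14 d. Over all tested genes the median of the fitted values, with no bounds, lay between -0.12 (acute 24 h) and 0.01 (acute 7 d). The member and all-gene medians were thus drawn up differently. Members at or near 0 in healthy libraries could also pass the filter through an injured group in which they are high. These medians therefore describe the tested members and are no evidence on the family as such.

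**Figure D3:**
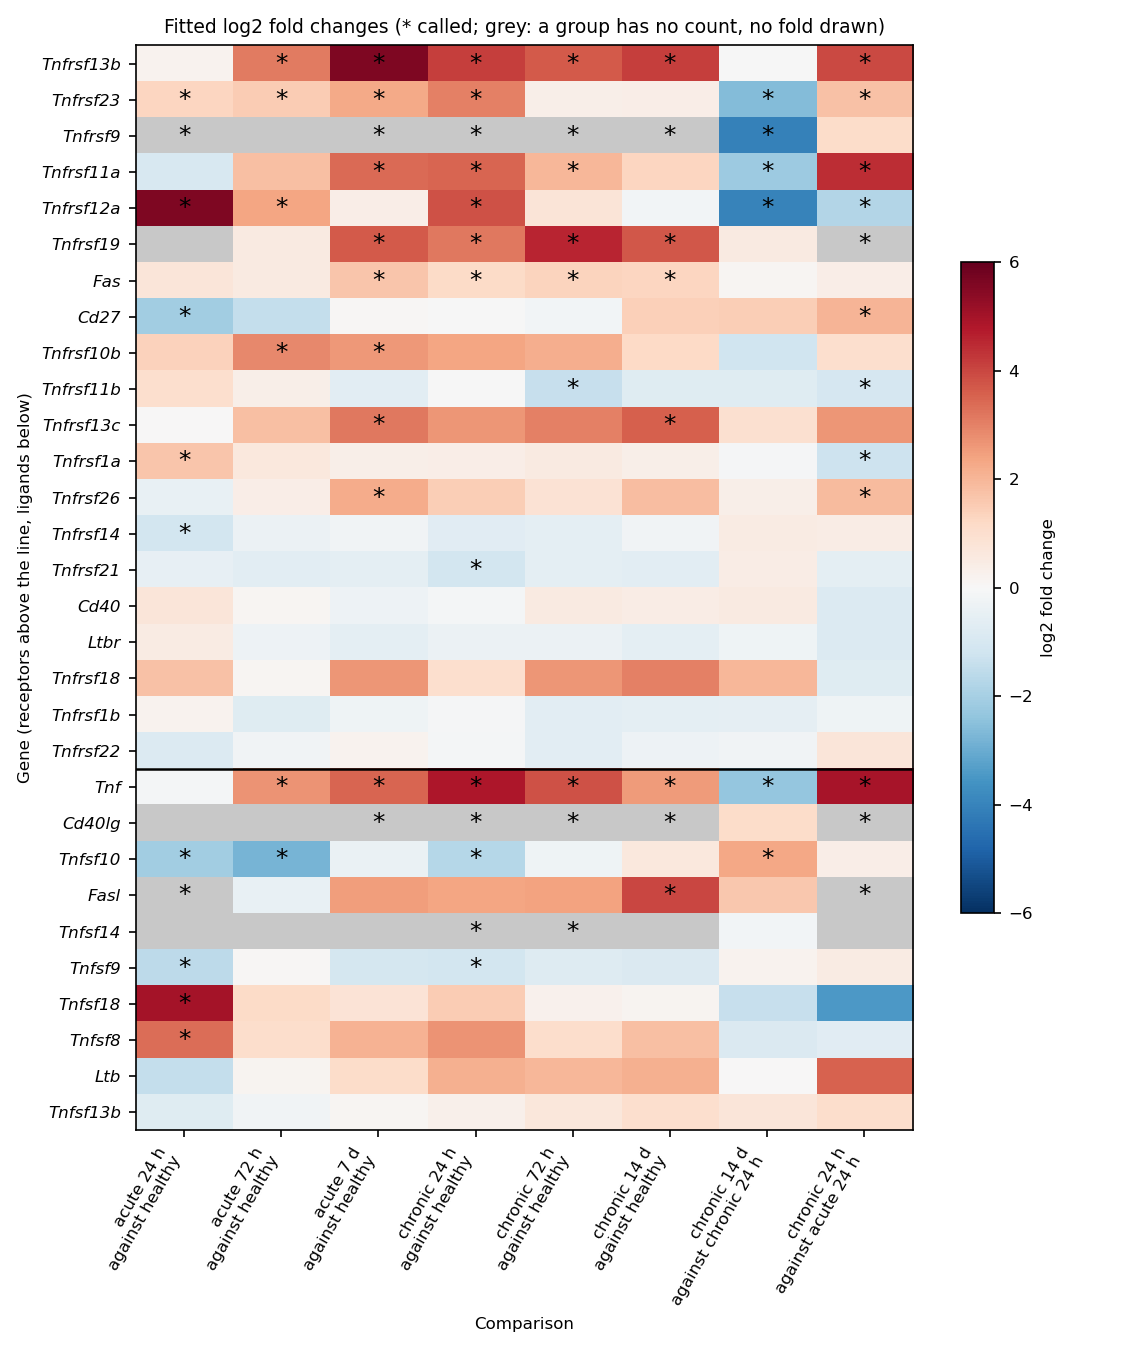
Fitted log2 fold changes (colour) of the 30 tested members, receptors above the line and ligands below, in the 8 comparisons; asterisks mark calls, and grey cells have a group without any count, for which no fold is drawn. Tnfrsf12a is called higher at acute 24 h, acute 72 h and chronic 24 h, whereas Tnf, Tnfrsf13b and Tnfrsf11a are called higher at acute 7 d and chronic 24 h and not at acute 24 h.

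Tnfrsf12a (ENSMUSG00000023905, chromosome 17, 23675445 to 23677468) encodes Fn14, the receptor of the cytokine TWEAK on the cell surface, and was far higher 24 h after injury. Tnfrsf12a stood at 6.8, 7.41, 8.09 and 9.45 CPM in healthy libraries and at 394, 370.3 and 396 CPM at acute 24 h. Tnfrsf12a was then at 35.3, 90.8, 17.9 and 20.4 CPM at acute 72 h and at 4.77, 8.12, 10.7 and 18.7 CPM at acute 7 d. Chronic libraries held Tnfrsf12a at 48.7, 101, 125 and 179 CPM at 24 h, at 11.6, 11.1, 5.84 and 25.1 CPM at 72 h and at 5.81, 10.9, 5.65 and 5.58 CPM at 14 d. All acute 24 h libraries lay far above every other library, the chronic 24 h libraries lay above the remaining ones except acute 72 h replicate 2, which exceeded chronic 24 h replicate 1, and chronic 14 d libraries overlapped the healthy ones. The mean rose from 7.94 ± 1.14 CPM (SD, n = 4) in healthy to 386 ± 14.1 CPM (SD, n = 3) in acute 24 h (log2 fold change 5.60, SE 0.59, adjusted p 2.97e-07, edgeR) and to 113 ± 54.0 CPM (SD, n = 4) in chronic 24 h libraries (log2 fold change 3.83, SE 0.54, adjusted p 8.56e-06, edgeR). At acute 72 h it was still higher (log2 fold change 2.37, SE 0.51, adjusted p 0.0016, edgeR; 1.63 without acute 72 h replicate 2), and at acute 7 d (0.41), chronic 72 h (0.76) and chronic 14 d (-0.18) it was not called. It fell between chronic 24 h and chronic 14 d (log2 fold change -4.02, SE 0.55, adjusted p 1.42e-05, edgeR). Fn14 RNA was lower after the last of 8 injections than after the first (log2 fold change -1.77, SE 0.51, adjusted p 0.0153, edgeR), with no overlap of the groups, but the call was lost with depth class as a term and in the higher-depth libraries alone (log2 fold change -1.38 in the latter). Macrophage markers in acute 24 h libraries (122 to 189 CPM) lay within the healthy range (112 to 406 CPM), and neutrophil markers lay above it (2.55 to 18.4 against 0 to 1.9 CPM), and their part was not tested.

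Tnfrsf9 (ENSMUSG00000028965, chromosome 4, 150914562 to 150946102) encodes 4-1BB (CD137), a costimulatory receptor of T cells. Tnfrsf9 stood at 0, 0, 0 and 0 CPM in healthy libraries and at 10.3, 5.56 and 2.02 CPM at acute 24 h. Tnfrsf9 was then at 0, 0.606, 0 and 0 CPM at acute 72 h and at 1.21, 1.39, 0.966 and 0.383 CPM at acute 7 d. Chronic libraries held Tnfrsf9 at 7.94, 8.79, 15.7 and 18.6 CPM at 24 h, at 1.33, 2.14, 0.467 and 1.18 CPM at 72 h and at 0.945, 0.526, 0.241 and 1.32 CPM at 14 d. No healthy library held a count, whereas every library at acute 24 h, acute 7 d and all chronic times did, and the chronic 24 h libraries overlapped only the acute 24 h ones. Measured against 3 counts per healthy library, the level was at least 22.2-fold higher at acute 24 h (adjusted p 1.72e-05, edgeR) and at least 47.3-fold higher at chronic 24 h (adjusted p 3.21e-06, edgeR). The bounds were 3.67-fold at acute 7 d, 4.75-fold at chronic 72 h and 2.82-fold at chronic 14 d (edgeR, adjusted p 0.00122 to 0.0106). From chronic 24 h to chronic 14 d it fell (log2 fold change -4.08, SE 0.79, adjusted p 0.000814, edgeR). T and NK cell markers summed to 0.351 to 3.65 CPM at acute 24 h, against 3.12 to 5.62 CPM in healthy libraries, where Cd3d, Cd2, Cd5 and Nkg7 had no count at acute 24 h, and to 9.12 to 28.8 CPM at chronic 24 h. At chronic 14 d, where Tnfrsf9 was lower again, they were highest (31.1 to 60.2 CPM), and their part was not tested.

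Tnfrsf23 (ENSMUSG00000037613, chromosome 7, 143665809 to 143685872), Tnfrsf22 and Tnfrsf26 are neighbours on mouse chromosome 7. The first 2 encode decoy receptors of the death ligand TRAIL. Tnfrsf23 stood at 2.45, 1.46, 1.35 and 1.47 CPM in healthy libraries and at 4.36, 3.82 and 4.13 CPM at acute 24 h. Tnfrsf23 was then at 7.0, 3.98, 4.71 and 4.03 CPM at acute 72 h and at 9.46, 11.3, 9.1 and 3.22 CPM at acute 7 d. Chronic libraries held Tnfrsf23 at 7.49, 10.4, 21.3 and 15.4 CPM at 24 h, at 2.67, 2.14, 1.56 and 2.19 CPM at 72 h and at 2.43, 2.63, 2.89 and 1.03 CPM at 14 d. All libraries of acute 24 h, acute 72 h, acute 7 d and chronic 24 h exceeded the highest healthy library, with the top values at chronic 24 h, and the chronic 72 h and 14 d libraries overlapped the healthy ones. Tnfrsf23 rose from 1.68 ± 0.513 CPM (SD, n = 4) in healthy to 4.1 ± 0.272 CPM (SD, n = 3) in acute 24 h (log2 fold change 1.28, SE 0.39, adjusted p 0.0142, edgeR) and, at chronic 24 h, 13.7 ± 6.06 CPM (SD, n = 4) (log2 fold change 3.02, SE 0.38, adjusted p 2.41e-06, edgeR). It was also higher at acute 72 h (1.54, adjusted p 0.00413, edgeR) and acute 7 d (2.29, adjusted p 0.000105, edgeR). It was higher at chronic than at acute 24 h (log2 fold change 1.74, SE 0.40, adjusted p 0.00295, edgeR) and lower at chronic 14 d than at chronic 24 h (log2 fold change -2.60, SE 0.38, adjusted p 3.11e-05, edgeR). Its exons share 164 bases, and those of Tnfrsf26 107, with E230032D23Rik on the opposite strand, and without a stated strand reads there cannot be assigned.

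Tnfrsf12a, Tnfrsf9 and Tnfrsf23 were the members called higher at 24 h in both the acute and the chronic setting, so their promoters are printed here, from 250 bases before to 50 bases after the RefSeq start (GRCm38.p6), 5′ to 3′ on the strand of the gene. Tnfrsf9 has 2 annotated starts. The runs lie at chr17:23677400-23677699, minus strand (Tnfrsf12a), chr7:143685826-143686125, minus strand (Tnfrsf23), chr4:150919905-150920204, plus strand (Tnfrsf9, first start) and chr4:150927749-150928048, plus strand (Tnfrsf9, second start). Capitals mark matches to the motifs searched, on both strands: TGANTCA for AP-1, GGNNTTTCC for NF-kB and GGAATG for TEAD.
Tnfrsf12a: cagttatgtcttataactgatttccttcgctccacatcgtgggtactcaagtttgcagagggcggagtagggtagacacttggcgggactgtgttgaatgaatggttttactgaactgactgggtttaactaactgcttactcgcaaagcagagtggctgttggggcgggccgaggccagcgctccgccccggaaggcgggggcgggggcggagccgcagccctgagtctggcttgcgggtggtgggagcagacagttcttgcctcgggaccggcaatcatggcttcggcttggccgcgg
Tnfrsf23: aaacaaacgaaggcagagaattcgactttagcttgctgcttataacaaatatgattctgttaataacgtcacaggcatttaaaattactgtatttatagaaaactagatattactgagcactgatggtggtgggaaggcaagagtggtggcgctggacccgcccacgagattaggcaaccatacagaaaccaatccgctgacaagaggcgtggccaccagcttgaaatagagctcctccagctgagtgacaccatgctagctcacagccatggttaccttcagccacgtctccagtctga
Tnfrsf9, first start: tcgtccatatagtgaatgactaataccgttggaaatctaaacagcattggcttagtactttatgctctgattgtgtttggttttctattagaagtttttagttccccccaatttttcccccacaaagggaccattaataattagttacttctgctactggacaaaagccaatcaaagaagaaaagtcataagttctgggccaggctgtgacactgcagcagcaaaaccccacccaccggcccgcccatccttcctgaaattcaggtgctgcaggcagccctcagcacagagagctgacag
Tnfrsf9, second start: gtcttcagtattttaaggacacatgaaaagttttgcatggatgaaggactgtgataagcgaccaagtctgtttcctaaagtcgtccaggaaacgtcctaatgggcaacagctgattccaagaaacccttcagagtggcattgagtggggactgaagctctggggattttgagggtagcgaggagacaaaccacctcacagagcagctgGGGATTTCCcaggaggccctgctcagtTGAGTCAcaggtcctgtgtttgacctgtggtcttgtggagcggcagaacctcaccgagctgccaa

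Only the run of the second start of Tnfrsf9 held a match, to the NF-kB letters from base 209 and to the AP-1 letters from base 236, counted from 1 at its 5′ end, and these do not overlap. Of 32851 promoters of the same length, 7.81% hold the AP-1 letters, 5.82% the NF-kB letters and 14.7% the TEAD letters. For 31 of the 41 members a promoter was in the table, 35 promoters in all, of which 7 held the AP-1, 4 the NF-kB and 5 the TEAD letters. A match describes letters in this window only.

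**Figure D4:**
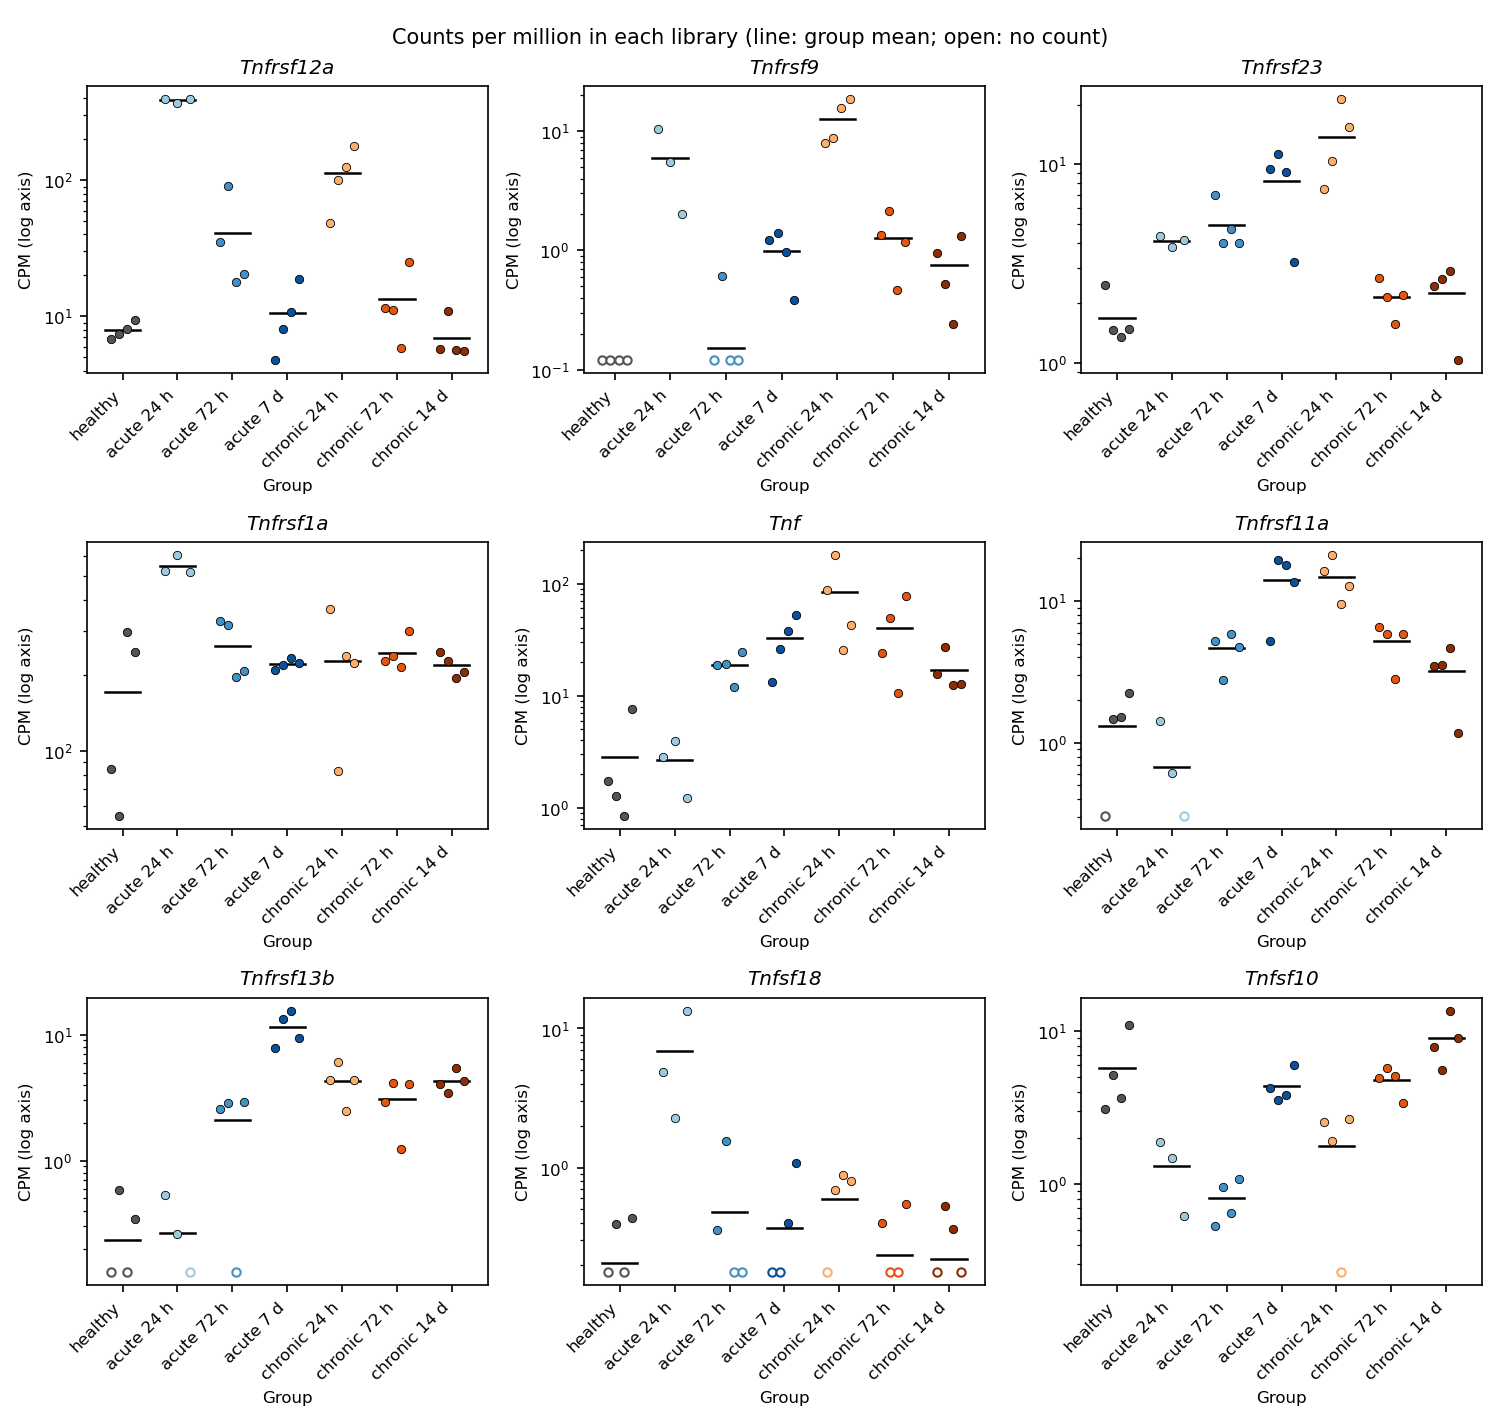
CPM (log axis) of 9 members in each library by group; points are libraries, lines group means and open circles libraries without a count. Tnfrsf12a reaches 370.3 to 396 CPM at acute 24 h against 6.8 to 9.45 CPM in healthy libraries, Tnfrsf9 has no healthy count, and Tnf is higher from acute 72 h on but not at acute 24 h.

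Tnfrsf26 (ENSMUSG00000045362, chromosome 7, 143607659 to 143628722) is a further receptor of this cluster. Tnfrsf26 stood at 0, 0.683, 2.61 and 1.65 CPM in healthy libraries and at 1.07, 0.608 and 1.05 CPM at acute 24 h. Tnfrsf26 was then at 1.15, 0.606, 3.01 and 1.78 CPM at acute 72 h and at 2.91, 5.91, 8.13 and 6.82 CPM at acute 7 d. Chronic libraries held Tnfrsf26 at 3.0, 4.53, 2.28 and 4.08 CPM at 24 h, at 2.93, 2.57, 1.48 and 2.12 CPM at 72 h and at 4.19, 5.0, 2.89 and 5.88 CPM at 14 d. Acute 7 d libraries all exceeded the healthy ones, while the other groups but chronic 14 d overlapped them. It was called at acute 7 d (log2 fold change 2.25, SE 0.61, adjusted p 0.00955, edgeR; 2.91 without healthy replicate 3), a call lost in a fit of only the 2 groups. Between chronic and acute 24 h it was also called higher (log2 fold change 1.92, SE 0.69, adjusted p 0.050, edgeR, just below the threshold). That call was lost without acute 24 h replicate 1, 2 or 3 or without chronic 24 h replicate 1, 2 or 4 (log2 fold change 1.70 to 2.05), and with no filter on low counts, with depth class as a term and in the higher-depth libraries alone. Tnfrsf22 was tested and never called, with 0.997 to 1.76 CPM in healthy and 0.263 to 2.05 CPM over all libraries. Macrophage markers were highest at acute 7 d (4106 to 10378 CPM), where Tnfrsf26 was called, and their part in Tnfrsf26 was not tested.

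Receptors with a death domain differed among themselves. Tnfrsf1a (ENSMUSG00000030341, chromosome 6, 125349362 to 125362484), the gene of TNF receptor 1, is the main signalling receptor of TNF. Tnfrsf1a stood at 84.7, 54.7, 298 and 248 CPM in healthy libraries and at 523, 604 and 516 CPM at acute 24 h. Tnfrsf1a was then at 328, 319, 196 and 208 CPM at acute 72 h and at 210.1, 219.7, 234 and 224 CPM at acute 7 d. Chronic libraries held Tnfrsf1a at 369, 82.8, 239 and 225 CPM at 24 h, at 227, 238, 216 and 300.4 CPM at 72 h and at 248, 228, 195 and 206 CPM at 14 d. The acute 24 h libraries exceeded all others, and healthy libraries were spread widely, replicates 1 and 2 lying below replicates 3 and 4. Tnfrsf1a rose from 171 ± 119.7 CPM (SD, n = 4) to 548 ± 48.6 CPM (SD, n = 3) at acute 24 h (log2 fold change 1.68, SE 0.42, adjusted p 0.00305, edgeR) and was not called at any other time against healthy. It was lower at chronic than at acute 24 h (log2 fold change -1.26, SE 0.41, adjusted p 0.0315, edgeR). This call was lost without acute 24 h replicate 1, 2 or 3 or without chronic 24 h replicate 2, 3 or 4 (log2 fold change -1.31 to -0.98), and with no filter on low counts, with depth class as a term, in the higher-depth libraries alone and in a fit of only the 2 groups. Tnfrsf1b, TNF receptor 2, was never called, at 396 to 511 CPM in healthy and 236 to 519 CPM over all 27 libraries.

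Fas (ENSMUSG00000024778, chromosome 19, 34290666 to 34327772) encodes the death receptor of Fas ligand. Fas stood at 1.54, 2.63, 5.73 and 9.71 CPM in healthy libraries and at 8.99, 9.98 and 5.44 CPM at acute 24 h. Fas was then at 4.43, 9.0, 8.78 and 6.35 CPM at acute 72 h and at 13.8, 14.9, 16.6 and 16.5 CPM at acute 7 d. Chronic libraries held Fas at 11.5, 13.9, 9.21 and 8.88 CPM at 24 h, at 9.87, 15.0, 9.26 and 16.2 CPM at 72 h and at 12.4, 17.0, 9.02 and 8.96 CPM at 14 d. Acute 7 d libraries lay above all healthy ones, whereas the chronic libraries overlapped the highest healthy library, replicate 4. Of 10 macrophage markers, 10 were called higher than in healthy libraries at acute 7 d, chronic 24 h and chronic 72 h, and 5 at chronic 14 d. Their part in the Fas values was not tested. Fas rose from 4.9 ± 3.66 CPM (SD, n = 4) to 15.5 ± 1.32 CPM (SD, n = 4) at acute 7 d (log2 fold change 1.65, SE 0.38, adjusted p 0.00299, edgeR). At chronic 24 h (log2 fold change 1.14, SE 0.38, adjusted p 0.0259, edgeR), 72 h (log2 fold change 1.35, SE 0.38, adjusted p 0.014, edgeR) and 14 d (log2 fold change 1.27, SE 0.38, adjusted p 0.0411, edgeR) it was called as well. The call at 24 h was lost without healthy replicate 1 or 2 or without chronic 24 h replicate 2 (log2 fold change 0.84 to 1.0), and with depth class as a term, in the higher-depth libraries alone and in a fit of only the 2 groups. That at 72 h was lost without healthy replicate 2 or without chronic 72 h replicate 4 (log2 fold change 1.15 to 1.21), and in the higher-depth libraries alone and in a fit of only the 2 groups. That at 14 d was lost without healthy replicate 1, 2 or 3 or without chronic 14 d replicate 1 or 2 (log2 fold change 0.97 to 1.35), and with no filter on low counts, with depth class as a term and in a fit of only the 2 groups.

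Tnfrsf10b (ENSMUSG00000022074, chromosome 14, 69767472 to 69784411) encodes the death receptor of TRAIL and was near the limit of counting. Tnfrsf10b stood at 0.181, 0.39, 0 and 0 CPM in healthy libraries and at 0.534, 0.434 and 0.176 CPM at acute 24 h. Tnfrsf10b was then at 1.24, 1.3, 0.894 and 0.929 CPM at acute 72 h and at 1.21, 0.574, 0.966 and 0.843 CPM at acute 7 d. Chronic libraries held Tnfrsf10b at 0.749, 1.78, 0.175 and 0.48 CPM at 24 h, at 0.40, 0.714, 0.934 and 0.627 CPM at 72 h and at 0, 0.921, 0 and 0.441 CPM at 14 d. All acute 72 h and acute 7 d libraries exceeded the healthy ones. It was called higher at acute 72 h (log2 fold change 2.87, SE 0.94, adjusted p 0.0302, edgeR) and at acute 7 d (log2 fold change 2.60, SE 0.94, adjusted p 0.0466, edgeR), from 6 counts over the 4 healthy libraries. The first call was lost without healthy replicate 1, 3 or 4 or without acute 72 h replicate 2 (log2 fold change 2.47 to 3.02), and with no filter on low counts and in a fit of only the 2 groups, and the second without healthy replicate 1, 3 or 4 or without acute 7 d replicate 1, 2, 3 or 4 (log2 fold change 2.19 to 2.76), and with no filter on low counts. Both were kept without healthy replicate 2, which leaves 2 healthy counts and for which no fold is given. Tnfrsf21 (ENSMUSG00000023915, chromosome 17, 43016555 to 43089189) encodes death receptor 6. Tnfrsf21 stood at 996, 1095, 1148 and 1451 CPM in healthy libraries and at 742, 800.2 and 928 CPM at acute 24 h. Tnfrsf21 was then at 869, 908, 657 and 587 CPM at acute 72 h and at 678, 904, 744 and 774 CPM at acute 7 d. Chronic libraries held Tnfrsf21 at 718, 428, 532 and 491 CPM at 24 h, at 732, 609, 983 and 765 CPM at 72 h and at 582, 493, 910.0 and 1008 CPM at 14 d. Every library of the injury groups but chronic 14 d replicate 4 lay below all healthy ones. Tnfrsf21 fell from 1172 ± 196 CPM (SD, n = 4) to 542 ± 125 CPM (SD, n = 4) at chronic 24 h (log2 fold change -1.11, SE 0.22, adjusted p 0.000399, edgeR), just past the 2-fold limit, a call lost without healthy replicate 4 (log2 fold change -0.99).

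RANK and osteoprotegerin bind the same ligand, RANK ligand. Tnfrsf11a (ENSMUSG00000026321, chromosome 1, 105780718 to 105847981), the gene of RANK, is known from osteoclasts, cells of the macrophage lineage, and dendritic cells. Tnfrsf11a stood at 0, 1.46, 1.52 and 2.25 CPM in healthy libraries and at 1.42, 0.608 and 0 CPM at acute 24 h. Tnfrsf11a was then at 5.23, 2.77, 5.85 and 4.72 CPM at acute 72 h and at 5.26, 19.4, 18.1 and 13.6 CPM at acute 7 d. Chronic libraries held Tnfrsf11a at 16.2, 21.1, 9.47 and 12.8 CPM at 24 h, at 6.53, 5.86, 2.8 and 5.88 CPM at 72 h and at 3.51, 3.55, 4.69 and 1.18 CPM at 14 d. Acute 72 h, acute 7 d, chronic 24 h and chronic 72 h libraries exceeded every healthy and acute 24 h library. Tnfrsf11a rose from 1.31 ± 0.944 CPM (SD, n = 4) to 14.1 ± 6.38 CPM (SD, n = 4) at acute 7 d (log2 fold change 3.41, SE 0.69, adjusted p 0.000921, edgeR) and 14.9 ± 4.98 CPM (SD, n = 4) at chronic 24 h (log2 fold change 3.49, SE 0.70, adjusted p 0.000478, edgeR). At chronic 72 h (log2 fold change 1.99, SE 0.67, adjusted p 0.0393, edgeR) the call was lost without healthy replicate 1, 2 or 3 or without chronic 72 h replicate 1, 2 or 4 (log2 fold change 1.58 to 2.07), and with no filter on low counts, with depth class as a term, in the higher-depth libraries alone and in a fit of only the 2 groups. It was higher at chronic than at acute 24 h (log2 fold change 4.44, SE 0.84, adjusted p 0.000497, edgeR; 5.56 without acute 24 h replicate 1). It fell from chronic 24 h to 14 d (log2 fold change -2.19, SE 0.65, adjusted p 0.0177, edgeR), a call lost without chronic 14 d replicate 4 (log2 fold change -1.87). Within chronic 24 h, macrophage markers stood at 2634, 3677, 571 and 1173 CPM, and ranked the libraries as Tnfrsf11a did. Across groups the 2 did not run in parallel. Macrophage markers stood at 286 to 526 CPM at acute 72 h and were highest at acute 7 d (4106 to 10378 CPM). They stood at 571 to 3677 CPM at chronic 24 h and 919 to 2416 CPM at chronic 72 h, and their part was not tested.

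Tnfrsf11b (ENSMUSG00000063727, chromosome 15, 54250619 to 54278484), the gene of osteoprotegerin, stayed abundant at every time. Tnfrsf11b stood at 749, 1057, 1155 and 1181 CPM in healthy libraries and at 1747, 2098 and 2345 CPM at acute 24 h. Tnfrsf11b was then at 1415, 1685, 1077 and 1077 CPM at acute 72 h and at 690.1, 571, 794 and 649.9 CPM at acute 7 d. Chronic libraries held Tnfrsf11b at 702, 1103, 1178 and 1131 CPM at 24 h, at 428, 413, 312 and 444 CPM at 72 h and at 601, 526, 571 and 828 CPM at 14 d. Acute 24 h libraries lay above the healthy ones, yet below the 2-fold limit (0.99, adjusted p 0.000806, edgeR, not called), and all chronic 72 h libraries lay below them. At chronic 72 h it fell from 1036 ± 198 CPM (SD, n = 4) to 399 ± 59.2 CPM (SD, n = 4) (log2 fold change -1.37, SE 0.20, adjusted p 3.19e-05, edgeR), and the log2 fold change was -1.42 in the higher-depth libraries alone. Against acute 24 h it was lower at chronic 24 h (log2 fold change -1.0, SE 0.21, adjusted p 0.00144, edgeR), a value at the 2-fold limit whose call was lost without acute 24 h replicate 2 or 3 or without chronic 24 h replicate 1 (log2 fold change -0.99 to -0.86), and scaled by the size factors of DESeq2, scaled by library size alone, with depth class as a term, in the higher-depth libraries alone and with DESeq2. RANK ligand itself (Tnfsf11) had at most 6 counts in a library and was not tested.

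Receptors of the B cell survival factors BAFF and APRIL were very low in healthy libraries. Tnfrsf13b (ENSMUSG00000010142, chromosome 11, 61126755 to 61149372) encodes TACI. Tnfrsf13b stood at 0, 0.585, 0 and 0.347 CPM in healthy libraries and at 0.534, 0.26 and 0 CPM at acute 24 h. Tnfrsf13b was then at 2.57, 2.86, 0 and 2.94 CPM at acute 72 h and at 7.76, 13.2, 15.4 and 9.35 CPM at acute 7 d. Chronic libraries held Tnfrsf13b at 4.35, 6.04, 2.46 and 4.4 CPM at 24 h, at 2.93, 4.14, 1.25 and 4.07 CPM at 72 h and at 4.05, 3.42, 5.41 and 4.26 CPM at 14 d. Acute 7 d libraries were highest, and every library from acute 7 d on exceeded the healthy and acute 24 h ones. From 0.233 ± 0.286 CPM (SD, n = 4) in healthy libraries it rose to 11.4 ± 3.49 CPM (SD, n = 4) at acute 7 d (log2 fold change 5.58, SE 0.90, adjusted p 8.81e-05, edgeR) and 4.31 ± 1.47 CPM (SD, n = 4) at chronic 24 h (log2 fold change 4.17, SE 0.88, adjusted p 0.000869, edgeR). It was also called at acute 72 h (3.14), chronic 72 h (3.69) and chronic 14 d (4.17), with adjusted p from 0.00407 to 0.0121 (edgeR). Without healthy replicate 2 these values against healthy were 4.04, 6.48, 5.07, 4.60 and 5.07 in the order of the times. Chronic 24 h exceeded acute 24 h (log2 fold change 3.96, SE 0.97, adjusted p 0.00488, edgeR), a call kept without acute 24 h replicate 1, which leaves that group 3 counts. It was lost in the higher-depth libraries alone, as was that at chronic 72 h, and that at chronic 14 d was lost with depth class as a term. Macrophage markers were also highest at acute 7 d (4106 to 10378 CPM), and B cell markers at chronic 14 d (22.9 to 39.6 CPM, 9.43 to 23.8 CPM at acute 7 d), and the part of either was not tested.

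Tnfrsf13c (ENSMUSG00000068105, chromosome 15, 82221743 to 82224369), the gene of the BAFF receptor of B cells, was close to absent in healthy libraries. Tnfrsf13c stood at 0, 0.488, 0 and 0 CPM in healthy libraries and at 0, 0.347 and 0 CPM at acute 24 h. Tnfrsf13c was then at 0.354, 0.346, 0.325 and 0.697 CPM at acute 72 h and at 0.728, 0.574, 1.05 and 2.15 CPM at acute 7 d. Chronic libraries held Tnfrsf13c at 0.60, 1.24, 0.614 and 0.72 CPM at 24 h, at 1.2, 1.29, 0 and 1.65 CPM at 72 h and at 1.89, 0.526, 2.29 and 1.47 CPM at 14 d. All acute 7 d and chronic 14 d libraries exceeded the healthy ones. It was called higher at acute 7 d (log2 fold change 3.15, SE 1.09, adjusted p 0.038, edgeR) and chronic 14 d (log2 fold change 3.61, SE 1.10, adjusted p 0.0429, edgeR), against 5 counts that all lay in healthy replicate 2, without which no fold can be given. The first call was lost without healthy replicate 1, 3 or 4 or without acute 7 d replicate 3 or 4 (log2 fold change 2.63 to 3.18), and with no filter on low counts and in the higher-depth libraries alone. The second was lost without healthy replicate 1, 3 or 4 or without chronic 14 d replicate 1, 3 or 4 (log2 fold change 3.20 to 3.68), and with no filter on low counts and with depth class as a term. B cell markers were highest in the same groups, at 9.43 to 23.8 and 22.9 to 39.6 CPM, and their part was not tested. Tnfsf13b, the gene of BAFF, was tested and never called, at 7.67 to 44.2 CPM over all libraries, and Tnfrsf17, the gene of BCMA, had counts in 1 library only (at most 2) and was not tested.

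Tnfrsf19 (ENSMUSG00000060548, chromosome 14, 60963875 to 61046490) encodes TROY, a receptor best known from the nervous system. Tnfrsf19 stood at 0, 0, 0.253 and 0 CPM in healthy libraries and at 0, 0 and 0 CPM at acute 24 h. Tnfrsf19 was then at 0, 0, 0 and 0.387 CPM at acute 72 h and at 0.89, 0.574, 1.13 and 1.3 CPM at acute 7 d. Chronic libraries held Tnfrsf19 at 1.05, 0.549, 0 and 1.2 CPM at 24 h, at 1.47, 1.57, 2.8 and 1.41 CPM at 72 h and at 0.54, 1.45, 0.962 and 1.18 CPM at 14 d. The 4 healthy libraries held 3 counts in all and the acute 24 h libraries none, and all acute 7 d, chronic 72 h and chronic 14 d libraries exceeded the healthy ones. From pooled counts the ratio to healthy was 14.6 (95% interval 4.71 to 73.2) at acute 7 d, 10.2 (95% interval 3.14 to 52.8) at chronic 24 h, 28.2 (95% interval 9.3 to 139.9) at chronic 72 h and 15.3 (95% interval 4.78 to 78.4) at chronic 14 d, intervals that cover counting error only. All 4 were called (edgeR, adjusted p 0.0062 to 0.043). Without healthy replicate 3, which held all 3 counts, no fold can be given. The call at acute 7 d was lost without healthy replicate 1 or 2, and in the higher-depth libraries alone. That at chronic 24 h was lost without healthy replicate 1, 2 or 4 or without chronic 24 h replicate 1 or 4, and with no filter on low counts, with depth class as a term and in the higher-depth libraries alone. That at chronic 14 d was lost without healthy replicate 1, 2 or 4 or without chronic 14 d replicate 2, 3 or 4, and with no filter on low counts and with depth class as a term, while that at chronic 72 h held in each of these settings. Against acute 24 h the chronic 24 h level was at least 2.65-fold higher (adjusted p 0.0137, edgeR), a call lost without acute 24 h replicate 2, and in the higher-depth libraries alone.

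Other receptors of lymphocytes were low. Cd27 (ENSMUSG00000030336, chromosome 6, 125232622 to 125237010) encodes a receptor of T and memory B cells. Cd27 stood at 1.27, 1.07, 0.59 and 1.65 CPM in healthy libraries and at 0.356, 0.0868 and 0.351 CPM at acute 24 h. Cd27 was then at 0.62, 0.346, 0.0813 and 0.62 CPM at acute 72 h and at 0.728, 0.984, 1.29 and 1.76 CPM at acute 7 d. Chronic libraries held Cd27 at 1.65, 1.37, 0.965 and 0.56 CPM at 24 h, at 1.73, 1.57, 0.623 and 0.313 CPM at 72 h and at 4.73, 2.89, 3.13 and 1.62 CPM at 14 d. Acute 24 h libraries lay below the healthy ones, and chronic 14 d held the 3 highest libraries. Its exons overlap those of Mir8113 on the same strand. It fell at acute 24 h (log2 fold change -2.07, SE 0.68, adjusted p 0.0221, edgeR). The call was lost without healthy replicate 4 or without acute 24 h replicate 2 (log2 fold change -1.84 to -1.66), and with no filter on low counts and in a fit of only the 2 groups. Chronic 24 h exceeded acute 24 h (log2 fold change 2.03, SE 0.69, adjusted p 0.0374, edgeR). The call was lost without acute 24 h replicate 1, 2 or 3 or without chronic 24 h replicate 1 or 2 (log2 fold change 1.63 to 2.29), and with no filter on low counts, with depth class as a term, in the higher-depth libraries alone and in a fit of only the 2 groups. Tnfrsf14 (ENSMUSG00000042333, chromosome 4, 154921933 to 154928563) encodes HVEM, the receptor of LIGHT. Tnfrsf14 stood at 3.9, 2.34, 2.78 and 3.55 CPM in healthy libraries and at 0.801, 0.955 and 2.63 CPM at acute 24 h. Tnfrsf14 was then at 3.45, 2.08, 2.19 and 2.25 CPM at acute 72 h and at 3.32, 3.44, 1.93 and 2.3 CPM at acute 7 d. Chronic libraries held Tnfrsf14 at 3.45, 1.24, 1.67 and 1.6 CPM at 24 h, at 2.8, 1.71, 2.26 and 1.57 CPM at 72 h and at 2.97, 2.11, 3.97 and 1.91 CPM at 14 d. Acute 24 h replicate 3 lay within the healthy range and replicates 1 and 2 below it. It fell at acute 24 h (log2 fold change -1.10, SE 0.42, adjusted p 0.0461, edgeR; -1.83 without acute 24 h replicate 3). The call was lost without healthy replicate 1, 3 or 4 or without acute 24 h replicate 1 or 2 (log2 fold change -1.15 to -0.80), and scaled by library size alone, with no filter on low counts, in the higher-depth libraries alone and in a fit of only the 2 groups. T and NK cell markers stood at 3.65, 0.868 and 0.351 CPM in acute 24 h and at 5.62, 4.68, 3.12 and 3.99 CPM in healthy libraries, and their part was not tested.

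The remaining tested receptors were never called. Cd40, the receptor that T cells engage on B cells and macrophages, ranged from 3.04 to 14.1 CPM, and Ltbr from 103 to 293 CPM. Acute 24 h libraries of both exceeded all healthy libraries, by log2 fold changes of 0.72 and 0.48, short of 2-fold. Ltbr was also below all healthy libraries, again short of 2-fold, at acute 7 d (log2 fold change -0.59, SE 0.17, adjusted p 0.0155, edgeR) and chronic 14 d (log2 fold change -0.60, SE 0.17, adjusted p 0.0319, edgeR). Tnfrsf18, the gene of GITR, ranged from 0 to 2.41 CPM, and its exons overlap those of Gm16008 on the opposite strand.

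Among the ligands, Tnf (ENSMUSG00000024401, chromosome 17, 35199381 to 35202007) is the founding cytokine of the family, made mainly by macrophages. Tnf stood at 1.72, 1.27, 0.843 and 7.54 CPM in healthy libraries and at 2.85, 3.91 and 1.23 CPM at acute 24 h. Tnf was then at 18.7, 19.3, 12.0 and 24.3 CPM at acute 72 h and at 13.3, 26.2, 37.4 and 52.6 CPM at acute 7 d. Chronic libraries held Tnf at 87.5, 179, 25.3 and 42.2 CPM at 24 h, at 24.0, 49.0, 10.6 and 77.6 CPM at 72 h and at 15.5, 27.2, 12.5 and 12.6 CPM at 14 d. Acute 24 h libraries overlapped the healthy ones, whereas every library of the other 5 injury groups exceeded the highest healthy library, replicate 4, which stood apart from the other healthy libraries. Tnf was not called at acute 24 h (log2 fold change -0.10, SE 0.77, adjusted p 0.946, edgeR). It rose from 2.84 ± 3.15 CPM (SD, n = 4) in healthy to 18.6 ± 5.04 CPM (SD, n = 4) at acute 72 h (log2 fold change 2.70, SE 0.70, adjusted p 0.00771, edgeR) and 32.4 ± 16.7 CPM (SD, n = 4) at acute 7 d (log2 fold change 3.50, SE 0.72, adjusted p 0.0011, edgeR). At chronic 24 h it stood at 83.6 ± 69.0 CPM (SD, n = 4) (log2 fold change 4.87, SE 0.76, adjusted p 3.43e-05, edgeR). The higher-depth libraries alone, which lack the highest replicates 1 and 2, gave a log2 fold change of 3.57. It was called at chronic 72 h (log2 fold change 3.81, SE 0.73, adjusted p 0.000629, edgeR) and chronic 14 d (log2 fold change 2.57, SE 0.70, adjusted p 0.0246, edgeR). The latter call was lost without healthy replicate 1, 2 or 3 or without chronic 14 d replicate 2 (log2 fold change 2.26 to 2.39), and with no filter on low counts, with depth class as a term and in a fit of only the 2 groups. Without healthy replicate 4 the log2 fold changes were 3.86, 4.66, 6.02, 4.97 and 3.72 from acute 72 h to chronic 14 d.

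Chronic 24 h exceeded acute 24 h in Tnf (log2 fold change 4.96, SE 0.87, adjusted p 0.000247, edgeR), with no overlap, and without chronic 24 h replicate 2 the log2 fold changes against acute 24 h and healthy were 4.27 and 4.17. It fell from chronic 24 h to chronic 14 d (log2 fold change -2.30, SE 0.67, adjusted p 0.0154, edgeR). The call was lost without chronic 24 h replicate 2 or without chronic 14 d replicate 3 or 4 (log2 fold change -2.13 to -1.60). Macrophage markers were within the healthy range at acute 24 h and above it in every library from acute 7 d on, and within chronic 24 h they stood at 2634, 3677, 571 and 1173 CPM where Tnf stood at 87.5, 179, 25.3 and 42.2 CPM. The highest group of macrophage markers was acute 7 d and that of Tnf chronic 24 h, and the part of macrophage RNA in Tnf was not tested.

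Tnfsf9 (ENSMUSG00000035678, chromosome 17, 57105325 to 57107757), the ligand of 4-1BB, was the most abundant ligand per length in healthy libraries. Tnfsf9 stood at 172, 155, 91.7 and 89.3 CPM in healthy libraries and at 35.7, 58.9 and 32.4 CPM at acute 24 h. Tnfsf9 was then at 174, 108, 106 and 145 CPM at acute 72 h and at 26.4, 26.4, 70.1 and 122 CPM at acute 7 d. Chronic libraries held Tnfsf9 at 41.1, 103, 51.8 and 44.5 CPM at 24 h, at 54.5, 90.3, 53.9 and 97.2 CPM at 72 h and at 56.3, 80.4, 72.8 and 66.3 CPM at 14 d. Acute 24 h and chronic 14 d libraries lay below all healthy ones. Tnfsf9 fell from 127 ± 42.7 CPM (SD, n = 4) to 42.3 ± 14.5 CPM (SD, n = 3) at acute 24 h (log2 fold change -1.58, SE 0.45, adjusted p 0.00815, edgeR). At chronic 24 h (log2 fold change -1.08, SE 0.40, adjusted p 0.0429, edgeR) the groups overlapped and the call was lost without healthy replicate 1 or 2 or without chronic 24 h replicate 1, 3 or 4 (log2 fold change -1.02 to -0.90), and with no filter on low counts, with depth class as a term, in the higher-depth libraries alone and in a fit of only the 2 groups. Its exons share 192 bases with Gm11110 on the opposite strand. Tnfsf18 (ENSMUSG00000066755, chromosome 1, 161494655 to 161505290), the ligand of GITR, was counted mainly at acute 24 h. Tnfsf18 stood at 0, 0.39, 0 and 0.433 CPM in healthy libraries and at 4.9, 2.26 and 13.3 CPM at acute 24 h. Tnfsf18 was then at 0.354, 1.56, 0 and 0 CPM at acute 72 h and at 0, 0, 0.402 and 1.07 CPM at acute 7 d. Chronic libraries held Tnfsf18 at 0, 0.686, 0.877 and 0.80 CPM at 24 h, at 0.40, 0, 0 and 0.548 CPM at 72 h and at 0, 0.526, 0.361 and 0 CPM at 14 d. The 3 acute 24 h libraries held the highest values of the series, above every healthy library. The rise was called (log2 fold change 4.99, SE 1.44, adjusted p 0.00951, edgeR; 5.65 without healthy replicate 4) and was lost without acute 24 h replicate 3 (log2 fold change 4.05), the highest library.

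Tnfsf8 (ENSMUSG00000028362, chromosome 4, 63831308 to 63861347), the CD30 ligand, also rose at acute 24 h. Tnfsf8 stood at 0.635, 0, 0.421 and 0 CPM in healthy libraries and at 4.01, 1.22 and 3.25 CPM at acute 24 h. Tnfsf8 was then at 0.531, 0.346, 0 and 1.39 CPM at acute 72 h and at 0.162, 1.64, 1.21 and 1.61 CPM at acute 7 d. Chronic libraries held Tnfsf8 at 2.25, 2.06, 0.877 and 2.0 CPM at 24 h, at 0.80, 0.857, 0 and 0.705 CPM at 72 h and at 1.08, 0, 1.32 and 1.47 CPM at 14 d. Acute 24 h and chronic 24 h libraries lay above all healthy ones. It was called at acute 24 h (log2 fold change 3.35, SE 1.13, adjusted p 0.024, edgeR; 4.17 without healthy replicate 1). The call was lost without healthy replicate 2 or 4 or without acute 24 h replicate 1 or 3 (log2 fold change 2.95 to 3.24). It was not called at chronic 24 h (2.69, adjusted p 0.0621, edgeR). Tnfsf10 (ENSMUSG00000039304, chromosome 3, 27317028 to 27342427), the gene of TRAIL, which triggers death through its death receptor, was lower early after injury. Tnfsf10 stood at 3.08, 5.17, 3.62 and 10.9 CPM in healthy libraries and at 1.87, 1.48 and 0.615 CPM at acute 24 h. Tnfsf10 was then at 0.531, 0.952, 0.65 and 1.08 CPM at acute 72 h and at 4.21, 3.53, 3.78 and 5.98 CPM at acute 7 d. Chronic libraries held Tnfsf10 at 2.55, 1.92, 0 and 2.64 CPM at 24 h, at 4.93, 5.71, 5.06 and 3.37 CPM at 72 h and at 7.83, 5.53, 13.5 and 8.96 CPM at 14 d. Acute 24 h, acute 72 h and chronic 24 h libraries lay below every healthy one, and the other groups overlapped the healthy range. Markers of sinusoidal endothelial cells were also below every healthy library at acute 24 h and acute 72 h (52.5 to 67.8 and 32.3 to 88.0 CPM against 98.8 to 292 CPM), overlapped the healthy range at chronic 24 h (39.0 to 114 CPM) and stood at 261 to 407 CPM at chronic 14 d, and their part in Tnfsf10 was not tested. From 5.7 ± 3.59 CPM (SD, n = 4) it fell to 0.805 ± 0.257 CPM (SD, n = 4) at acute 72 h (log2 fold change -2.80, SE 0.62, adjusted p 0.0020, edgeR). At acute 24 h (log2 fold change -2.10, SE 0.66, adjusted p 0.0164, edgeR) the call was lost without healthy replicate 4 or without acute 24 h replicate 3 (log2 fold change -1.76 to -1.57), and in the higher-depth libraries alone. At chronic 24 h (log2 fold change -1.69, SE 0.59, adjusted p 0.032, edgeR) it was lost without healthy replicate 4 or without chronic 24 h replicate 2 (log2 fold change -1.74 to -1.17), and in the higher-depth libraries alone and in a fit of only the 2 groups. Chronic 14 d exceeded chronic 24 h (log2 fold change 2.34, SE 0.60, adjusted p 0.00645, edgeR), a call lost in a fit of only the 2 groups.

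Ligands of lymphocytes were at or near 0 in healthy libraries. Fasl (ENSMUSG00000000817, chromosome 1, 161780689 to 161788495) encodes Fas ligand, made by cytotoxic T and NK cells. Fasl stood at 0.453, 0.195, 1.1 and 0 CPM in healthy libraries and at 0, 0 and 0 CPM at acute 24 h. Fasl was then at 0.62, 0, 0.65 and 0 CPM at acute 72 h and at 2.67, 2.05, 1.85 and 3.6 CPM at acute 7 d. Chronic libraries held Fasl at 5.4, 1.78, 0.438 and 2.0 CPM at 24 h, at 3.87, 4.57, 0.70 and 0.783 CPM at 72 h and at 10.9, 6.71, 4.93 and 6.02 CPM at 14 d. No acute 24 h library held a count, and all acute 7 d and chronic 14 d libraries exceeded the healthy ones. It rose from 0.436 ± 0.477 CPM (SD, n = 4) to 7.15 ± 2.63 CPM (SD, n = 4) at chronic 14 d (log2 fold change 3.98, SE 0.95, adjusted p 0.0107, edgeR; 4.98 without healthy replicate 3), a call lost with depth class as a term. Against 3 counts per acute 24 h library the healthy level was at least 1.65-fold higher (adjusted p 0.0359, edgeR). That call was lost without healthy replicate 1 or 3 or without acute 24 h replicate 1, 2 or 3, and with no filter on low counts. The chronic 24 h level was at least 9.12-fold higher than at acute 24 h (adjusted p 0.00291, edgeR). Cd40lg (ENSMUSG00000031132, chromosome X, 57212143 to 57224042) encodes CD40 ligand of activated T cells. Cd40lg stood at 0, 0, 0 and 0 CPM in healthy libraries and at 0, 0 and 0 CPM at acute 24 h. Cd40lg was then at 0, 0.26, 0 and 0 CPM at acute 72 h and at 0.809, 0.246, 0.322 and 0.843 CPM at acute 7 d. Chronic libraries held Cd40lg at 0, 0.412, 2.02 and 0.64 CPM at 24 h, at 0.267, 0.571, 0 and 0.313 CPM at 72 h and at 2.43, 1.84, 1.44 and 1.18 CPM at 14 d. Healthy and acute 24 h libraries had no count, and chronic 14 d libraries exceeded all others but chronic 24 h replicate 3. The level was at least 2.06-fold higher at acute 7 d (adjusted p 0.0125, edgeR), 2.85-fold at chronic 24 h (adjusted p 0.00498, edgeR) and 6.4-fold at chronic 14 d (adjusted p 0.00558, edgeR). The chronic 72 h mean was at or under 3 counts per library, and its call was lost without healthy replicate 1, 2, 3 or 4 or without chronic 72 h replicate 1, 2 or 4, and with no filter on low counts, with depth class as a term and in the higher-depth libraries alone. Against acute 24 h the chronic 24 h level was at least 2.91-fold higher (adjusted p 0.016, edgeR), a call lost without acute 24 h replicate 1 or 2. T and NK cell markers were likewise lowest at acute 24 h (0.351 to 3.65 CPM) and highest at chronic 14 d (31.1 to 60.2 CPM), and their part was not tested.

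Tnfsf14 (ENSMUSG00000005824, chromosome 17, 57189492 to 57194177), the gene of LIGHT, likewise had no count in healthy and acute 24 h libraries. Tnfsf14 stood at 0, 0, 0 and 0 CPM in healthy libraries and at 0, 0 and 0 CPM at acute 24 h. Tnfsf14 was then at 0.266, 0.26, 0 and 0 CPM at acute 72 h and at 0.647, 0.246, 0 and 0.46 CPM at acute 7 d. Chronic libraries held Tnfsf14 at 1.5, 1.1, 0 and 0.16 CPM at 24 h, at 1.07, 1.0, 0 and 0.392 CPM at 72 h and at 0, 0.395, 1.2 and 0.735 CPM at 14 d. No library exceeded 1.5 CPM, and each chronic group held a library without a count. It was called at chronic 24 h (at least 2.56-fold higher, adjusted p 0.028, edgeR) and chronic 72 h (at least 2.28-fold, adjusted p 0.0452, edgeR). The first call was lost without healthy replicate 1, 2, 3 or 4 or without chronic 24 h replicate 1 or 2, and with depth class as a term. The second was lost without healthy replicate 1, 2, 3 or 4 or without chronic 72 h replicate 1, 2 or 4, and with no filter on low counts and with depth class as a term. Ltb, the gene of lymphotoxin beta, was tested and never called. It varied widely within the injured groups, from 0.878 to 2.53 CPM in healthy to 0 to 19.0 CPM in chronic 24 h libraries, and 7 of the 27 libraries, at acute 72 h, acute 7 d and all chronic times, held no count while others held up to 145 counts.

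Of the 11 members that did not pass the filter, Cd70, the ligand of CD27, and Tnfsf13, the gene of APRIL, had no count in any library, which allows up to 3 counts in each. The others were the ligands Lta (at most 11 counts, 12 of 27 libraries), Tnfsf11 (at most 6 counts, 8 of 27 libraries), Tnfsf15 (at most 10 counts, 11 of 27 libraries) and Tnfsf4 (at most 6 counts, 2 of 27 libraries), and the receptors Tnfrsf25 (at most 8 counts, 12 of 27 libraries), Tnfrsf4 (at most 4 counts, 3 of 27 libraries), Tnfrsf8 (at most 17 counts, 7 of 27 libraries) and Tnfrsf17 (at most 2 counts, 1 of 27 libraries). They encode lymphotoxin alpha, RANK ligand, TL1A, OX40 ligand, DR3, OX40, CD30 and BCMA. Tnfsf12, the gene of TWEAK and thus of the ligand of Fn14, had at most 7 counts in 8 libraries. Its exons share 731 bases with the read-through gene Tnfsfm13 (chromosome 11, 69682577 to 69696098), which covers Tnfsf12 and Tnfsf13 on the same strand and held 6.75 to 32.5 CPM in the 27 libraries. Reads of TWEAK, APRIL and the read-through transcript cannot be told apart in such counts, so low values of Tnfsf12 and Tnfsf13 do not show that these ligands were absent.

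A list of 16 genes that TNF can induce in fibroblasts was drawn up, and 15 were tested. Tnf itself was not called at acute 24 h, and all 10 macrophage markers were called higher at chronic 24 h. The part of TNF or of other cells in the changes below was not tested. At acute 24 h, 9 of 15 listed genes were higher and 1 lower (median log2 fold change 1.71). At chronic 24 h, 11 of 15 were higher and 1 lower (median log2 fold change 2.38). At chronic 14 d, 5 of 15 were higher and 0 lower (median log2 fold change 1.05). The medians over all tested genes were -0.12, -0.03 and -0.03, and the shares called higher 9.41%, 11.2% and 4.55%. At acute 72 h 10 of 15, at acute 7 d 5 of 15 and at chronic 72 h 7 of 15 were higher, and 0 lower. The shares of all genes called higher there were 8.23%, 9.23% and 7.88%. The gene lists here and below were drawn up with earlier results of these data known, so their counts describe the listed genes only. Mmp3, the gene of stromelysin, rose from 1.2 ± 0.899 CPM (SD, n = 4) to 82.1 ± 16.5 CPM (SD, n = 3) at acute 24 h (log2 fold change 6.09, SE 0.66, adjusted p 4.38e-07, edgeR) and Ptgs2, the gene of cyclooxygenase 2, from 3.09 ± 1.96 CPM (SD, n = 4) to 142 ± 65.4 CPM (SD, n = 4) at chronic 24 h (log2 fold change 5.51, SE 0.53, adjusted p 5.70e-08, edgeR). Tnfaip6 had log2 fold changes of 2.70 and 3.84 at these times, Ccl7, a monocyte chemokine, of 2.78 and 4.13, and Lif of 4.57 and 4.14 (edgeR, all called). Cxcl10, an interferon-induced chemokine, was the listed gene called lower, with log2 fold changes of -1.85 and -1.64. From chronic 24 h to chronic 14 d, 8 listed genes fell and 1, Cxcl10, rose, where 6.11% of all genes were called lower and 6.65% higher.

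Of 18 tested NF-kB subunits, kinases and inhibitors, 3 were higher and 0 lower at acute 24 h (list median 0.45, edgeR). They were the inhibitor genes Nfkbib (1.35) and Nfkbia (1.13) and the subunit gene Relb (1.07). At chronic 24 h, 2 were higher and 0 lower (list median 0.10, edgeR), the inhibitor genes Tnip3 (5.0) and Tnfaip3 (3.15), the latter encoding A20. The shares of all genes called higher at these times were 9.41% and 11.2%, and those called lower 12.5% and 8.11%. At chronic 24 h the share of this list called higher lies near that of all genes. Tnfaip3 went from 12.4 to 39.98 CPM in healthy to 197 to 394 CPM in chronic 24 h libraries, without overlap, and was not called at acute 24 h (0.75). Among 25 adaptor and death signalling genes, 3 were higher and 1 lower (median log2 fold change 0.01) at acute 24 h, and the 3 called at chronic 24 h were higher. Of all genes, 9.41% were called higher and 12.5% lower at acute 24 h and 11.2% higher at chronic 24 h, so the share of adaptor genes called higher lies near that of all genes at both times. Ripk3, a kinase of necroptosis, rose from 2.25 ± 1.55 CPM (SD, n = 4) to 26.6 ± 1.33 CPM (SD, n = 3) at acute 24 h (log2 fold change 3.55, SE 0.35, adjusted p 1.02e-07, edgeR) and 21.4 ± 1.99 CPM (SD, n = 4) at chronic 24 h (log2 fold change 3.24, SE 0.33, adjusted p 1.39e-07, edgeR). Birc2 (2.17) and Birc3 (1.39), which encode the ubiquitin ligases cIAP1 and cIAP2 of the receptor complex, were higher and the kinase gene Map3k5 (-1.44) lower at acute 24 h. Traf1 (3.35) and Traf5 (1.0) were higher at chronic 24 h.

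Of 5 genes of ligand and receptor shedding, Rhbdf2, which encodes iRhom2, the partner of the TNF-cleaving protease ADAM17, was called higher at acute 24 h, from 19.96 ± 3.54 CPM (SD, n = 4) to 123 ± 7.82 CPM (SD, n = 3) (log2 fold change 2.62, SE 0.32, adjusted p 1.58e-06, edgeR), and at chronic 24 h (log2 fold change 1.5, SE 0.30, adjusted p 0.00042, edgeR). Of the 5 family members that carry other symbols, Ngfr, the p75 neurotrophin receptor and a marker of quiescent HSCs, fell from 229.8 ± 35.2 CPM (SD, n = 4) to 59.2 ± 31.8 CPM (SD, n = 3) at acute 24 h (log2 fold change -1.96, SE 0.45, adjusted p 0.00175, edgeR) and 30.9 ± 3.77 CPM (SD, n = 4) at chronic 24 h (log2 fold change -2.89, SE 0.42, adjusted p 1.45e-05, edgeR). Eda, the ligand ectodysplasin, fell at both times (-1.56 and -1.88, edgeR). Its receptor gene Edar was called higher at chronic 24 h (2.48 to 3.45 CPM) against 3 counts over the healthy libraries. The receptor gene Relt rose at both times (3.75 and 2.88, edgeR). In the shedding list 1 of 5 was higher and 0 lower at each time. In the other list 1 of 5 was higher and 2 lower at acute 24 h, and 2 were higher and 2 lower at chronic 24 h. Of all genes, 9.41% were called higher and 12.5% lower at acute 24 h, and 11.2% and 8.11% at chronic 24 h. Lists of 5 genes are too short to read against these shares.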

How the data were processed

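RNA of HSCs from 27 libraries was sequenced single-end, and per the methods of the study reads were checked with FastQC, mapped to GRCm38.p6 with STAR and assembled with StringTie. The authors deposited raw counts per gene in one table. Tool versions, the strand setting, the annotation release and the step from assembly to counts are not given in the sources used here. Genes that overlap or share exons can exchange reads in such counts. The authors analysed the counts with DESeq2.

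From the deposited counts, one edgeR 4.0.16 quasi-likelihood model (R 4.3.3, limma 3.58.1; TMM scaling, filterByExpr, robust) was fitted over the 7 groups, and p-values were adjusted by Benjamini-Hochberg over all 18758 genes tested. Calls needed an adjusted p under 0.05 with more than 2-fold change. CPM used the TMM library size. TPM used merged exon lengths of the GRCm38 annotation. Folds against a group without counts are bounds against 3 counts per library, and pooled ratios have exact 95% intervals for counting error only. DESeq2 1.42.0, other scalings and filters, a depth term, depth classes split by total count, fits of only 2 groups, a replicate block and leaving out each library were alternatives. The test was checked on simulated data.

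Members, gene lists and markers were chosen with earlier results of these data known. Named were all members, those called with every library, and at most 6 genes of each list called at acute or chronic 24 h. No vehicle control was analysed here. Promoter sequences came from RefSeq. Where nothing says that libraries of a group came from separate mice, p-values measure only the spread between these libraries.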

Additional observations from a re-analysis of the deposited data

Results flagged for a closer look

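Within groups of 4, some libraries stood apart from the rest of their group by more than the 95% limit of Dixon's test, which chance does in about 1 of 20 groups, and 96 groups were examined. Tnf was 7.54 CPM in healthy replicate 4 against 0.843 to 1.72 CPM in the other healthy libraries, and its fold changes without that library are given above. Tnfrsf23 was 2.45 CPM in healthy replicate 1 against 1.35 to 1.47 CPM. Among injured groups, Tnfrsf11b was 702 CPM in chronic 24 h replicate 1 (1103 to 1178 CPM in the others), Tnfrsf12a 10.9 CPM in chronic 14 d replicate 2 (5.58 to 5.81 CPM) and Tnfrsf19 2.8 CPM in chronic 72 h replicate 3 (1.41 to 1.57 CPM). At acute 72 h, Tnfrsf13b had no count in replicate 3 (0 CPM, 2.57 to 2.94 CPM in the others) and Tnfrsf14 was 3.45 CPM in replicate 1 (2.08 to 2.25 CPM).

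Between libraries taken 24 h after the last of 8 injections and 24 h after 1 injection, 12 of 30 tested members were called (edgeR, direct comparison). Of these, 9 were higher (background 10.9% of genes) and 3 lower (3.05%) in the chronic group. Macrophage markers stood at 571 to 3677 CPM at chronic 24 h and 122 to 189 CPM at acute 24 h. T and NK cell markers stood at 9.12 to 28.8 and 0.351 to 3.65 CPM. The part of such cells in these calls was not tested. The log2 fold change of chronic against acute 24 h was 4.96 for Tnf, 4.44 for Tnfrsf11a, 3.96 for Tnfrsf13b, 2.03 for Cd27, 1.92 for Tnfrsf26 and 1.74 for Tnfrsf23. It was -1.77 for Tnfrsf12a, -1.26 for Tnfrsf1a and -1.0 for Tnfrsf11b. Members without an acute count were at least 9.12-fold (Fasl), 2.91-fold (Cd40lg) and 2.65-fold (Tnfrsf19) higher. Of the 12, only Fasl, Tnfrsf23, Tnf and Tnfrsf11a kept the call in each alternative fit that tested them and without each library in turn.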

How the results depend on the processing

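No call of a member changed direction under any alternative. Of the 76 calls, 75 of 76 were kept with DESeq2, 75 of 76 with its size factors and 74 of 76 scaled by library size. With no filter 58 of 76 were kept, and 58 of 76 with depth class as a term. At a mean of at least 1 CPM, 60 of 60 testable calls were kept. In the higher-depth libraries 41 of 60 were kept, and 44 of 58 in fits of only the 2 groups. An adjusted p below 0.1 and no fold minimum only loosen the limits of the same fit. No call could be lost there, so the 76 of 76 kept in each is no check. The lower-depth libraries, an alternative chosen after seeing the data, kept 6 of 6 calls of chronic 14 d against chronic 24 h. Counts of members moved in these cases. In fits of only the 2 groups, 5 were called at acute 7 d (11 before), 7 at chronic 24 h (13), 4 at chronic 72 h (9) and 3 at chronic 14 d (8). In the higher-depth libraries, 8 were called at chronic 24 h, 4 at chronic 72 h and 6 between chronic and acute 24 h (12). At chronic 14 d, 4 were called with no filter, 5 at a mean of at least 1 CPM and 2 with depth class as a term, which gave 7 between chronic and acute 24 h. Fits of only the 2 groups and of the higher-depth libraries had fewer libraries, and the filter at a mean of at least 1 CPM left fewer genes (16095). The fit with no filter tested more genes (37181 against 18758), and that with depth class as a term used the same libraries and genes. Why these counts moved was not tested. Leaving out 1 library at a time gave 7 to 12 members at acute 24 h, 5 to 7 at acute 72 h, 8 to 11 at acute 7 d, 9 to 14 at chronic 24 h, 5 to 11 at chronic 72 h, 4 to 6 at chronic 14 d, 5 to 7 for chronic 14 d against 24 h and 7 to 13 for chronic against acute 24 h. The lowest counts came without acute 24 h replicate 3 (7), chronic 72 h replicate 4 (5), healthy replicate 1 (4, chronic 14 d) and acute 24 h replicate 2 (7, chronic against acute 24 h). Without a library, the acute 24 h group keeps 2.

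No pairing by replicate number was seen in the 8 comparisons, where same-numbered libraries correlated in their deviations between -0.17 and 0.15. Chronic 24 h against chronic 72 h, where replicates 1 and 2 have lower depth in both groups, was not checked. So few libraries cannot settle whether they are paired. With a replicate block, 70 of 76 calls were kept (lost were Tnfrsf19 at chronic 24 h and 14 d, Tnfrsf11a, Cd40lg and Tnfsf14 at chronic 72 h, and Tnfrsf26 between chronic and acute 24 h), and 12, 6, 12, 12, 6 and 8 members were called against healthy in the order of the acute and chronic times, 6 between chronic 14 d and 24 h and 12 between chronic and acute 24 h. Depth limits members under about 1 CPM, which rest on a few counts, and chronic 14 d libraries all have lower depth, so depth cannot be told apart from that group.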
